A study of Mus musculus with 2 samples.

Results

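The regions described here are the Pwp1 peaks of distal chromosome 14 in mouse embryonic stem cells. They are the peaks of the list on chromosome 14 with a centre at or beyond 69 Mb of the mouse build mm9, and 315 of the 5639 listed peaks (5.59%) met this rule. The 114 peaks of chromosome 14 with a centre below 69 Mb served as the comparison. The boundary was chosen by the measured number of peaks per Mb in this same list, which steps up there, so density across it is described and not tested.

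The peaks come from chromatin immunoprecipitation followed by sequencing (ChIP-seq), in which DNA bound by a protein is pulled down with an antibody, sequenced and mapped, and places with many reads are called as peaks. The series asked where in the genome Pwp1 binds. It has 1 ChIP library made with an anti-Pwp1 antibody from Santa Cruz and 1 input library made from DNA without antibody. Both came from E14.1 cells, a mouse embryonic stem cell line, grown on gelatin in medium containing 15% serum and LIF at 1000 units per ml, and the labels name no genetic change, treatment or separate culture. The input library entered no comparison here, and the cell type could not be checked against marker genes because no expression was measured.

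Pwp1 is a WD-repeat protein, a family whose propeller-shaped domain brings proteins together, and it is known for its part in ribosome production in the nucleolus. The series title links it to Stat3, the transcription factor through which LIF keeps these cells undifferentiated. A peak marks a place where reads of the ChIP library piled up enough to be called. Its width can depend on the fragments, on how many positions are occupied side by side, on read depth and on the settings of the peak caller. Each listed peak has only a chromosome, a start and an end. Position and width are therefore the 2 measures available, and the list carries no peak height, p-value or read depth. With 1 ChIP library the error between replicates cannot be estimated. Every interval below is a 95% interval that covers counting error only and leaves that error out. The intervals treat peaks as independent, which neighbouring peaks may not be. Genes and sequence under the peaks were not analysed here.

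Distal chromosome 14 held 315 peaks between 69.36 and 115.7 Mb, or 6.79 peaks per Mb of the span between the first and the last centre (95% Poisson interval 6.06 to 7.58). Below 69 Mb the density was 1.87 peaks per Mb (1.54 to 2.25) over 60.95 Mb. The ratio was 3.63 (2.92 to 4.54), and it describes the step by which the boundary was set. The part of chromosome 14 below the boundary had about the density of the autosomal sequence outside chromosomes 1, 11, 14 and distal chromosome 6, which was 1.88 peaks per Mb (1.82 to 1.94). Both values are averages. Other dense stretches were not taken out of that sequence, and the lower part of chromosome 14 was itself not level. The distal peaks covered 65.8 kb, or 0.142% of their span, against 0.0291% below 69 Mb.

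The extra peaks were of the commonest width or wider. Across the whole list 1719 peaks were exactly 167 bp wide, and this width divides the peaks into narrower, equal and wider ones. Peaks narrower than 167 bp were about as dense on both sides of the boundary, with 41 distal peaks at 0.884 per Mb (0.634 to 1.20) and 60 peaks below it at 0.984 per Mb (0.751 to 1.27). The ratio of distal to lower density for these narrow peaks was 0.898 (0.588 to 1.36). For peaks of exactly 167 bp, 110 distal peaks stood against 29 below the boundary, a density ratio of 4.98 (3.29 to 7.79). For wider peaks, 164 stood against 25, a density ratio of 8.62 (5.64 to 13.7). The step that defines distal chromosome 14 was thus made up of peaks of 167 bp and more, while the narrow peaks showed no step that these counts could resolve.

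The same split was seen in finer width classes. Peaks of up to 120 bp had 0.657 times the density of the lower part of the chromosome (0.320 to 1.29), and peaks of 121 to 166 bp had 1.11 times (0.639 to 1.91). Both intervals include equal density. The ratio was 4.66 (2.34 to 10.1) for peaks of 168 to 200 bp, 7.74 (3.78 to 17.8) for 201 to 250 bp and 9.20 (3.59 to 30.1) for 251 to 300 bp. Above 300 bp there were 37 distal peaks, or 11.7%, against 2.31% of the whole list. Below 69 Mb there were 0 such peaks among 114 (exact binomial interval 0 to 3.18%). The density there was 0 per Mb (0 to 0.0605), against 0.798 per Mb (0.562 to 1.10) distally.

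**Figure D1:**
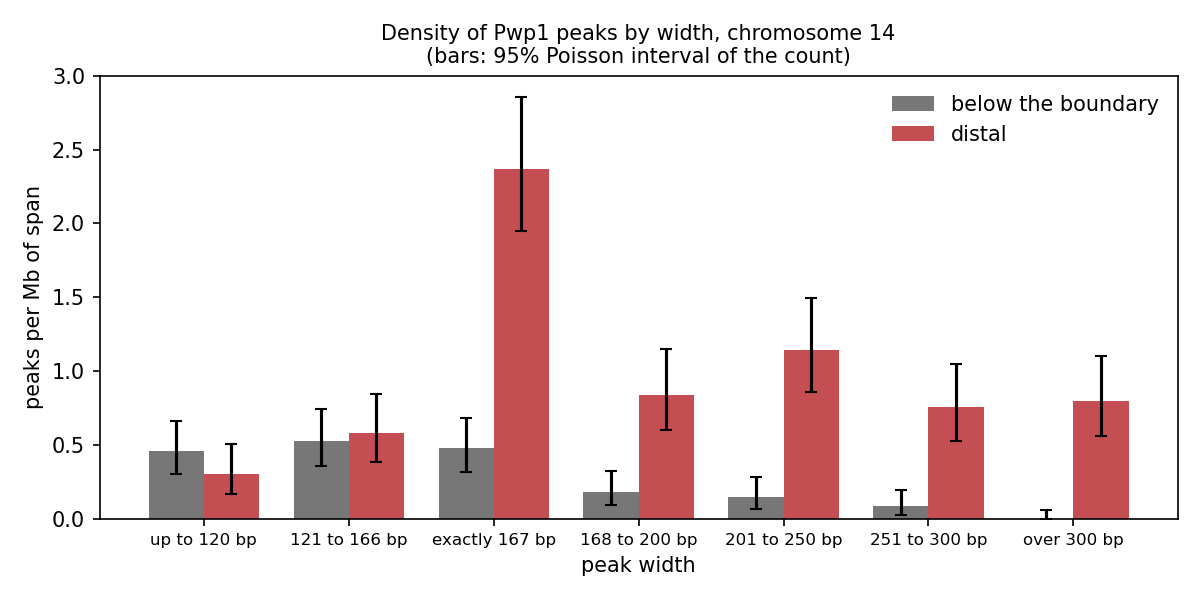
Density of peaks (peaks per Mb of span, y axis) in 7 classes of peak width (x axis) for chromosome 14 below the boundary (grey) and beyond it (red), with error bars that are 95% Poisson intervals. The bars of the narrow classes overlap within their intervals, while from 167 bp upwards the distal bars stand above the others.

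Windows of 5 Mb counted from the boundary showed the same along the chromosome. Narrow peaks numbered 2 to 7 in the 9 full distal windows, with a median of 5, and 2 to 8 in the 12 windows below the boundary, with a median of 4. The distal range of narrow counts therefore lay inside that of the windows below the boundary. Wider peaks numbered 12 to 22 in the distal windows, with a median of 18, and 0 to 7 in the windows below, with a median of 1.5. No distal window held as few wider peaks as any window below the boundary. Peaks of exactly 167 bp lay between these, with 5 to 22 in distal windows and 0 to 7 below, so that their ranges met.

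**Figure D2:**
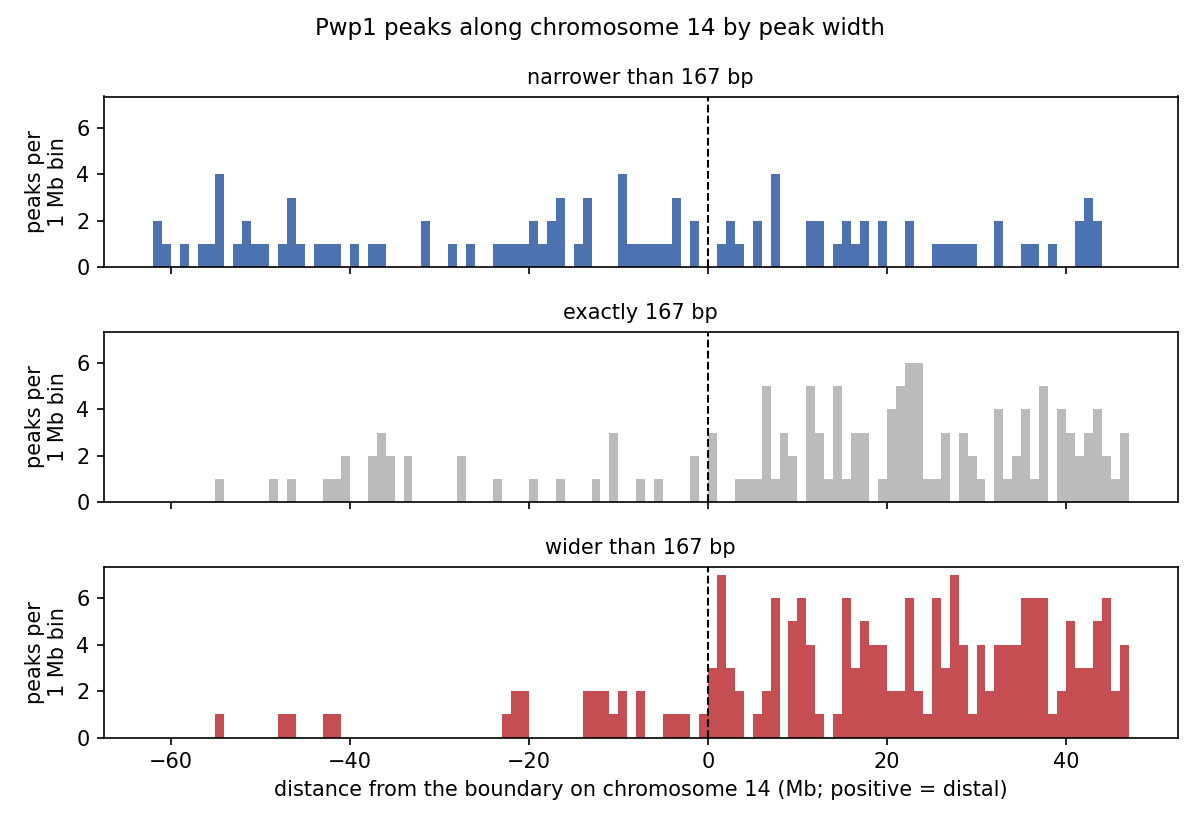
Number of peaks in each 1 Mb bin (y axis) against the distance of the bin from the boundary on chromosome 14 in Mb (x axis, positive values distal), for peaks narrower than 167 bp (top), of exactly 167 bp (middle) and wider (bottom), with the boundary dashed. The top row runs on across the boundary at 0.984 and 0.884 peaks per Mb, and the bottom row fills up beyond it.

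The approach to the boundary was not level. In the 15 Mb just below it, 41 peaks gave 2.73 per Mb (1.96 to 3.71), against 1.58 per Mb (1.24 to 1.98) for the 73 peaks nearer the start of the chromosome and 5.80 (4.65 to 7.15) in the 15 Mb just above. Shares of the peaks above 167 bp followed the same order. The value was 13.7% (6.77 to 23.7) in the part nearer the start, 36.6% (22.1 to 53.1) in the 15 Mb below the boundary and 47.1% (36.3 to 58.1) in the 15 Mb above. The intervals of the flanks on either side of the boundary overlapped for width but not for density. This division into flanks was chosen after the counts had been seen.

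The 3 peaks just inside the rule lay at chr14:69358407-69358573 (167 bp), chr14:69377742-69377908 (167 bp) and chr14:69523728-69523901 (174 bp). The 3 just outside it lay at chr14:67489972-67490132 (161 bp), chr14:67665177-67665343 (167 bp) and chr14:68687309-68687514 (206 bp). The last peak below and the first above were 671.1 kb apart, so these 6 peaks alone do not mark a sharp edge, either in width or in spacing.

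Between the boundary and the last listed peak, the peaks were spread over the whole span. The rest of the chromosome, with no listed peak, is left out of the bins. All 46 full 1 Mb bins from 69 to 115 Mb held at least 1 peak (100%, exact binomial interval 92.3 to 100), against 49 of 61 bins below (80.3%, 68.2 to 89.4). Counts per distal bin ran from 1 to 14, with a median of 7 and quartiles of 5 and 8, and 35 bins held 5 or more peaks. The variance of the distal counts was 1.30 times their mean, close to the 1.33 of the bins below the boundary. For counts scattered evenly at random this value is 1, and it was 1.70 on distal chromosome 6, 1.46 on chromosome 11 and 1.44 on chromosome 1. By this measure the peaks of distal chromosome 14 were no more bunched than those of the lower part or of these 3 segments.

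Neighbouring distal peaks were a median of 94.5 kb apart, with quartiles of 32.7 and 199.6 kb, against a median of 369.8 kb below 69 Mb. The standard deviation of these distances was 1.07 times their mean, against 1.18 below the boundary. A neighbour within 10 kb was present for 51 distal peaks (16.2%, 12.3 to 20.7) and for 6 of 114 peaks below (5.26%, 1.96 to 11.1), beside 7.59% in the whole list. Closer spacing comes with higher density, and whether the close pairs exceed what density alone gives was not tested. There were 27 pairs of neighbouring distal peaks within 10 kb and 6 within 1 kb.

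**Figure D3:**
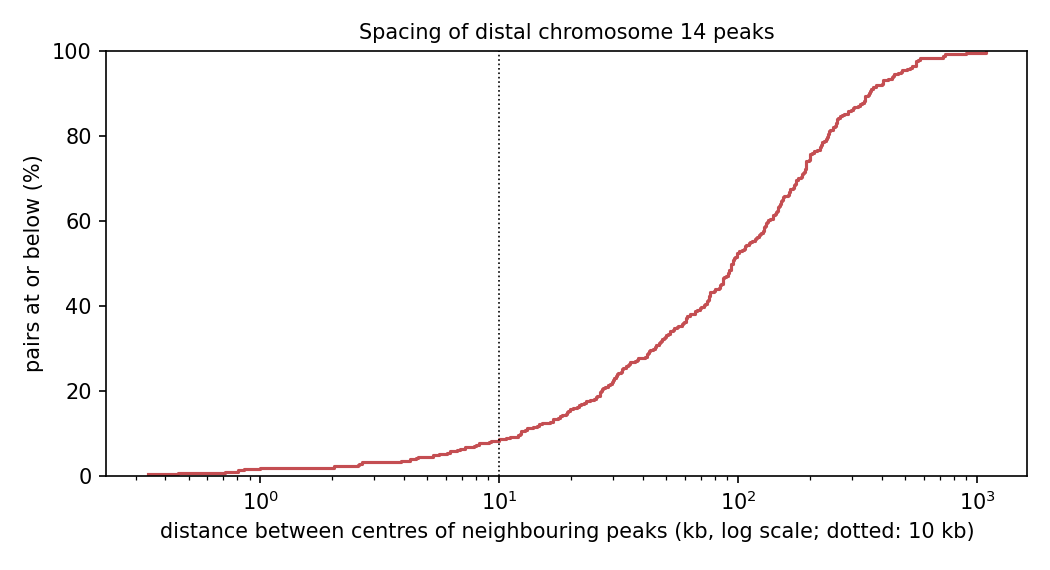
Cumulative share of neighbouring pairs of distal chromosome 14 peaks (y axis, percent of 314 pairs) at or below a given distance between their centres (x axis, kb, log scale), with 10 kb dotted. The curve climbs smoothly through its median of 94.5 kb and has a short tail of 6 pairs below 1 kb.

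The 3 closest pairs differed in kind. At chr14:76562163-76562291 and chr14:76562501-76562631, a pair of narrow peaks of 129 and 131 bp had centres 339 bp apart with 209 bp between their edges. At chr14:106155832-106156214 and chr14:106156335-106156618, wide peaks of 383 and 284 bp were separated by only 120 bp. The third pair, at chr14:97920866-97921079 and chr14:97921593-97921777, had widths of 214 and 185 bp and 513 bp between the peaks. From positions alone, 1 site split by the caller and neighbouring sites cannot be told apart.

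Crowding was measured as the number of other distal peaks within 500 kb on either side of a peak, and crowded peaks were named only where they lay at least 1 Mb from a more crowded one already named. The peak at chr14:90955014-90955190 had the most, with 13 such neighbours. Away from it, the peak at chr14:104675600-104675871 had 12 and that at chr14:86301967-86302114 had 11, while other peaks, among them neighbours of the first, also had 12 or 11. The widths of these 3 peaks were 177, 272 and 148 bp. Between neighbouring distal peaks, the longest peak-free stretch followed chr14:72586841-72587013, where the next centre was 1087 kb away. The next longest followed chr14:81990396-81990500, at 897.7 kb, and chr14:98042827-98042993, at 734.4 kb. Even the longest of these was shorter than the longest below the boundary, 3878 kb. The end of the chromosome beyond the last listed peak is not counted among these stretches.

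Distal peaks were wide in comparison with the rest of the list. The median width was 173 bp with quartiles of 167 and 246 bp, against 162.5 bp with quartiles of 122 and 167 bp below 69 Mb. The difference was larger in the upper tail than at the median, since the width that 90% of peaks did not exceed was 311 bp distally and 209.5 bp below. Peaks wider than 167 bp made up 52.1% of the distal peaks (46.4 to 57.7), 21.9% of those below 69 Mb (14.7 to 30.6) and 32.0% of the whole list. Peaks narrower than 167 bp made up 13.0% (9.51 to 17.2) and 52.6% (43.1 to 62.1), beside 37.6% of the list. Peaks wider than 200 bp made up 39.7% of the distal peaks (34.2 to 45.3) and 12.3% of those below 69 Mb (6.88 to 19.8), beside 17.3% of the list. Width belongs to the same contrast as the rule and was not tested. The 315 peaks themselves count in the whole-list values.

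The widest distal peak, at chr14:115283046-115283642, spanned 597 bp and was the fourth widest of the list. It was followed by chr14:113365366-113365865 (500 bp), chr14:106292580-106293072 (493 bp), chr14:102181411-102181895 (485 bp) and chr14:105838701-105839184 (484 bp). All 5 lay more than 33 Mb beyond the boundary, in the last of 3 equal parts of the segment. Of the 22 listed peaks of 391 bp or more, 12 were distal chromosome 14 peaks. Of the 101 peaks of 313 bp or more, 30 were (29.7%, 21.0 to 39.6), where distal chromosome 14 holds 5.59% of the list. Chromosome 14 below 69 Mb held 0 of these 101. Chromosome 11, with 10.4% of the list, held 34 of the 101 and 8 of the 22, and also the widest listed peak, at 976 bp. Of the 101, chromosome 1 held 17 and distal chromosome 6 held 5. The narrowest distal peaks, at chr14:91430972-91431044, chr14:95071203-95071282 and chr14:88728017-88728101, were 73, 80 and 85 bp wide. The 73 bp peak lay 3868 bp from its neighbour, so a narrow peak could sit close to another.

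Within the segment the widest peaks lay towards its distal end. In 3 equal parts of 15.46 Mb, running away from the boundary, peaks wider than 300 bp numbered 4 of 96, 10 of 106 and 23 of 113. Their shares were 4.17% (1.15 to 10.3), 9.43% (4.62 to 16.7) and 20.4% (13.4 to 29.0). Peaks wider than 200 bp made up 27.1% (18.5 to 37.1), 41.5% (32.0 to 51.5) and 48.7% (39.2 to 58.3). The intervals of the first and the last part did not overlap for either limit. Against this, the peaks wider than 167 bp made up 49.0%, 51.9% and 54.9%, with overlapping intervals, and density was 6.21, 6.86 and 7.31 peaks per Mb, also with overlapping intervals. Along the segment, then, the upper tail of the widths differed more than the number of peaks did. Over the 315 peaks the rank correlation of width with position was 0.16, a weak relation given as a description, in which neighbouring peaks share their surroundings.

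**Figure D4:**
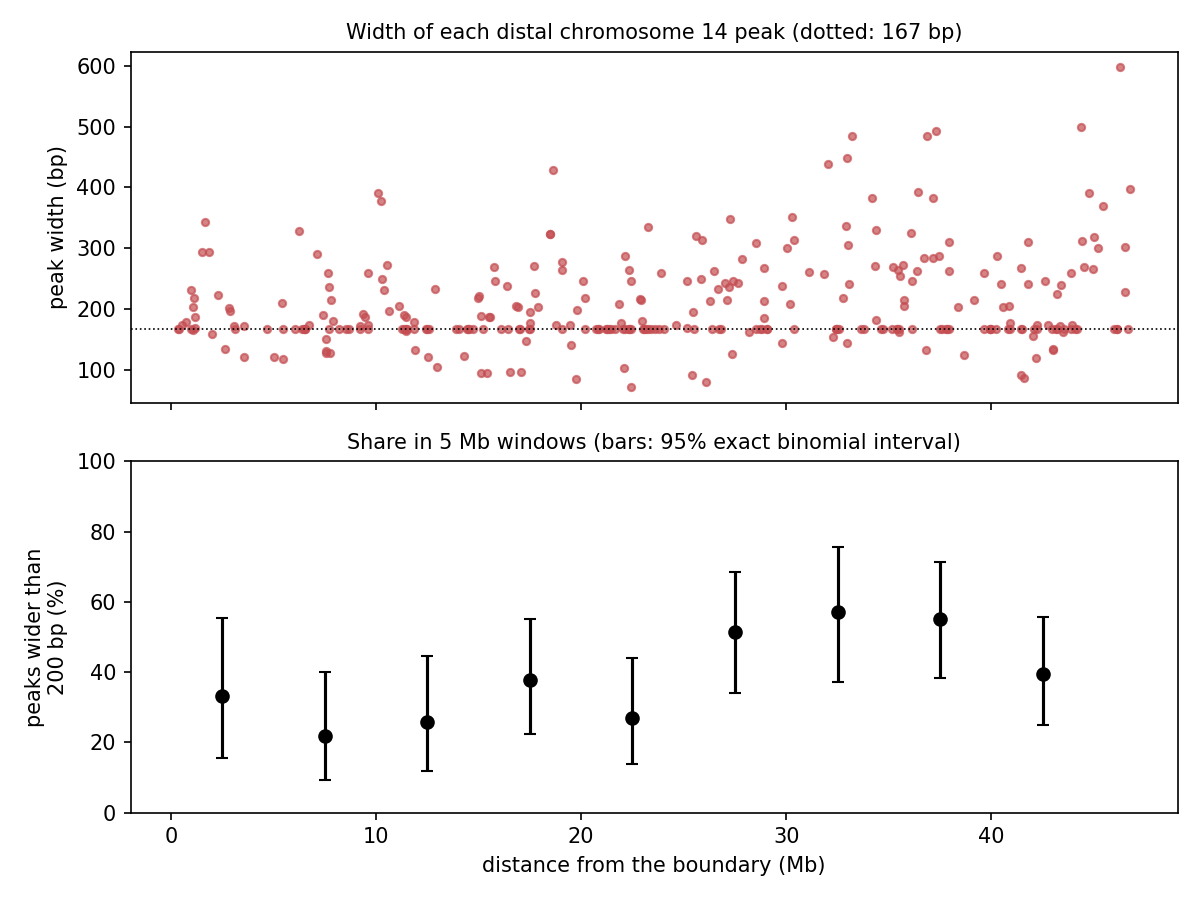
Top, width of each of the 315 distal peaks (y axis, bp) against its distance from the boundary (x axis, Mb), with 167 bp dotted. Bottom, share of peaks wider than 200 bp in the 9 full 5 Mb windows with 95% exact binomial intervals, which lies at 21.9% to 37.8% in the first 5 windows and at 39.5% to 57.1% in the last 4.

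In windows of 5 Mb, peaks wider than 200 bp were least frequent from 74 to 79 Mb, at 7 of 32 peaks (21.9%), and most frequent from 99 to 104 Mb, at 16 of 28 (57.1%). The window from 89 to 94 Mb was the one with the most peaks of exactly 167 bp, 22 of 37, and had 2 narrower ones. It was followed by the window from 94 to 99 Mb with 9 such peaks of 35 and a median width of 214 bp. Neighbouring windows of similar peak number thus differed in the widths they held.

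Width showed little relation to the distance to the nearest peak. Among the 51 distal peaks with a neighbour within 10 kb, 22 (43.1%, 29.4 to 57.8) were wider than 200 bp, and among the 264 others 103 (39.0%, 33.1 to 45.2) were. The 79 peaks farthest from any neighbour, at 95.3 kb or more, had a median width of 188 bp, and the 79 nearest, at 17.2 kb or less, had one of 167 bp. The rank correlation of width with the distance to the nearest peak was 0.057 over 315 peaks. Widths of successive peaks were weakly alike, with a correlation of 0.22 over 314 pairs, and are therefore not fully independent values.

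The 4 segments compared were distal chromosomes 14 and 6 and chromosomes 11 and 1. Of these, distal chromosome 14 had the most peaks per Mb of span and the highest share of wide peaks. Its span ends at the last listed peak, so the rest of chromosome 14, with no listed peak, is left out. Counting that stretch would lower the density of distal chromosome 14, by an amount not computed here. Chromosomes 11 and 1 were taken whole, sparse parts included. Distal chromosomes 14 and 6 were each cut at a step in density, which favours a high density in them. Other dense stretches of the genome were not set apart here. Density was 5.14 peaks per Mb (4.48 to 5.88) on distal chromosome 6, beyond 108 Mb, 4.97 (4.57 to 5.38) on chromosome 11 and 4.13 (3.85 to 4.43) on chromosome 1. Peaks wider than 200 bp made up 24.4% (18.8 to 30.7) on distal chromosome 6, 31.7% (28.0 to 35.7) on chromosome 11 and 23.3% (20.4 to 26.4) on chromosome 1, against 39.7% on distal chromosome 14. The interval for distal chromosome 14, 34.2 to 45.3, overlapped that of chromosome 11 but not those of the other segments. All 4 segments were singled out by density in the same list, so these values stand side by side without a test.

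**Figure D5:**
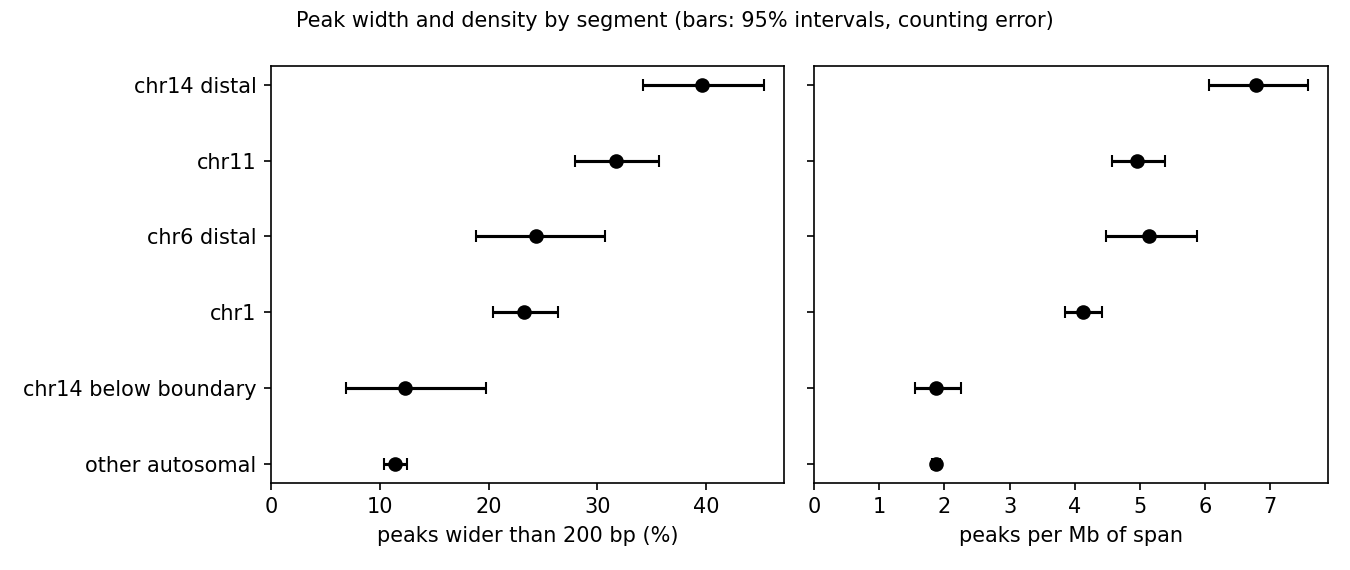
Share of peaks wider than 200 bp (left, percent) and density (right, peaks per Mb of span) for 6 groups of peaks (y axis), with 95% exact binomial and Poisson intervals as bars. Distal chromosome 14 lies farthest right in both panels, at 39.7% and 6.79 peaks per Mb, and the part below the boundary lies beside the other autosomal peaks.

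The contrast between narrow and wide peaks was present in these segments too, to a smaller degree. The other autosomal sequence used for this was an average from which other dense stretches were not taken out. Against it, the density of peaks narrower than 167 bp was 1.05-fold (0.748 to 1.43) on distal chromosome 14. This density was 1.46-fold (1.08 to 1.93) on distal chromosome 6, 1.28-fold (1.06 to 1.53) on chromosome 11 and 1.25-fold (1.08 to 1.45) on chromosome 1. The density of peaks wider than 167 bp was 7.12-fold (5.998 to 8.42) on distal chromosome 14, against 4.43-fold (3.53 to 5.49), 4.64-fold (4.04 to 5.31) and 3.13-fold (2.74 to 3.56) on the other segments in the same order. Above 300 bp the distal chromosome 14 density was 76.2-fold (43.1 to 138.5) that of the other autosomal sequence, which held 20 such peaks among 3585. That ratio was 34.6-fold (19.9 to 62.1) on chromosome 11, 16.1-fold (5.77 to 39.7) on distal chromosome 6 and 10.9-fold (5.66 to 21.0) on chromosome 1. Against the rest of chromosome 6, distal chromosome 6 had a density ratio of 1.70 (1.17 to 2.45) for peaks narrower than 167 bp. For wider peaks it was 5.61 (3.84 to 8.325). Narrow peaks were thus denser beyond that boundary than before it. The boundary was placed where a split of the 1 Mb counts of all listed chromosome 6 peaks fitted best. Narrow peaks are among those counts, so a rise was favoured in advance and was not tested.

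Chromosome 14 below the boundary was also set beside the other autosomal sequence. Its density ratio to that sequence was 0.996 (0.820 to 1.20) for all peaks, 1.17 (0.885 to 1.51) for peaks narrower than 167 bp and 0.826 (0.532 to 1.23) for wider ones. Each interval includes equal density, so a difference was not detectable with 114 peaks.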

How the data were processed

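One peak list was analysed, that of the anti-Pwp1 ChIP library. Its peaks carry a start and an end deposited by the authors in 3 columns without a header and no value per peak. Per the submitters' processing notes, CASAVA 1.4, Bowtie 0.12.7, HOMER 4.3 and the build mm9 were used. Their roles and settings, the peak threshold and the use of the input are not stated in any source used here, and they could change both number and width of peaks. Sequencing depth is unknown.

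Starts were read as counted from 0 and are printed counted from 1. No 2 listed peaks overlapped (0 overlaps). Width is end minus start as deposited, and spacing is the distance between centres. Density is the number of peaks over the span from first to last centre. Intervals are 95% exact Poisson, exact Clopper-Pearson or, for ratios of densities, exact conditional binomial intervals. No test was made, because the boundary was set on these peaks and there is 1 library. Peaks named by position are the 5 widest, the 3 narrowest, the first and last, the 3 closest pairs, the 3 longest distances, the 3 with most neighbours within 500 kb that lie at least 1 Mb apart (ties by position) and the 3 on either side of the boundary. The members, the boundaries and these choices were made with earlier results of these data known. Genes and sequence were not analysed here, since no genome of mm9 was used. Computations used Python 3.11.15, numpy 2.4.6, pandas 2.3.3, scipy 1.17.1 and matplotlib 3.10.9. The density ratio and its interval were tried on simulated lists with a known step, and most other functions were not tried in this way.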

Additional observations from a re-analysis of the deposited data

How the results depend on the processing

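Of 73 recomputed values, 58 stayed inside the interval of the reported value. The difference between the sides of the boundary kept its direction in 28 of 28 recomputed comparisons. That direction was largely fixed in advance, because the boundary was set on the density step. Spacing, neighbours and occupied bins follow from density, and width belongs to the same contrast, so the count is no independent check. The values that moved mostly follow from a changed definition. Without peaks of exactly 167 bp, density was 4.43 peaks per Mb distally and 1.39 below, the median distance 151.6 and 465.9 kb, and the distal share with a neighbour within 10 kb 10.7%. With a limit of 200 bp in place of 167 bp the share of wider peaks was 39.7% distally, 12.3% below, 24.4% on distal chromosome 6, 31.7% on chromosome 11 and 23.3% on chromosome 1. With peaks of 167 bp left out of the denominator it was 80.0% distally. Within 50 kb, 54.0% of distal peaks and 17.5% of those below had a neighbour. The share of occupied bins below the boundary was 54.1% with 0.5 Mb bins and 96.7% with 2 Mb bins. Boundaries at 67 or 71 Mb and merging of peaks within 1 kb moved no value outside its interval. The density ratio of narrow peaks then lay between 0.884 and 0.926 and that of peaks wider than 167 bp between 6.21 and 8.31. These ratios were recomputed after seeing the data. No paired analysis was possible because only 1 ChIP library was made. Limits set by depth could not be assessed, since the depth is unknown. Other peak thresholds could not be tried, because no value per peak is at hand.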

Other observations

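The last peak of chromosome 14 in the list, at chr14:115746445-115746841, was 397 bp wide and ranked 16th by width among all listed peaks. The window from 109 to 114 Mb held 43 peaks, the most of the 9 full distal windows. Between 114 Mb and this last peak there were 10, 6 of them wider than 200 bp and 0 narrower than 167 bp. The 1 Mb bin from 114 Mb held 3 of these peaks and the incomplete bin from 115 Mb held 7, beside a median of 7 over the full distal bins. As background, chromosome 14 of mm9 continues beyond this position. The list thus holds no peak on chromosome 14 beyond this last one. Whether none was called there or rows are missing from the list is not known.

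Apart from the 110 peaks of exactly 167 bp, no single width was common among the distal peaks. They took 149 different widths, and the next most frequent were 174 bp, with 6 peaks, and 246 bp, with 5.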
